A study of Mus musculus with 11 samples.

Results

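Toll-like receptors are pattern-recognition receptors that bind microbial lipoproteins, lipopolysaccharide and nucleic acids and signal through adaptors such as MyD88. Downstream kinases mark the IkB proteins for destruction, and dimers of the NF-kB subunits then enter the nucleus and switch on target genes that include their own inhibitors, which closes a negative feedback loop. In the embryo, inflammatory signals of this kind, some of them made by myeloid cells, are known to support the formation of blood stem cells from endothelium, and in the adult the same receptors let stem cells sense infection.

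The 10 genes described here are the receptors Tlr2 and Tlr4, the adaptor Myd88, the NF-kB subunits Nfkb1, Nfkb2, Rel, Rela and Relb, and the inhibitors Nfkbia and Tnfaip3. They were taken by symbol from a table of 37820 mouse Ensembl genes, and each matched 1 row. RNA-seq had been done on sorted cells at 5 stages of hematopoietic stem cell (HSC) ontogeny, 11 libraries in all. Values are FPKM, a fragment count divided by transcript length and library size, so levels can be set side by side between genes.

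Non-hemogenic endothelium (Endo, n = 2) and hemogenic endothelium (HE, n = 2), the rare endothelium that gives rise to blood, came from the major arteries of embryos at embryonic day 10.5. Both were CD31+ and negative for CD45 and CD41. HE was Runx1:GFP+ with low or no c-Kit, and Endo was negative for Runx1:GFP and for c-Kit, the GFP being read from the Runx1 locus itself. Pre-HSCs (n = 3), which mature into HSCs but cannot yet engraft an adult, were c-Kit+ Ly6a:GFP+ cells that also carried CD31, CD144 and ESAM, where GFP came from a Ly6a (Sca1) transgene; their labels give embryonic day 10.5, and the study's methods a later day. Fetal liver HSCs (FL HSC, n = 2) were taken at embryonic day 14.5, and bone marrow HSCs (BM HSC, n = 2) from adults of 6 to 8 weeks. Per the methods both were Lin- Sca1+ c-Kit+ CD150+ CD48-. BM HSCs were also CD135- and had first been enriched for c-Kit with beads. The study's list of RNA-seq cells gives CD34- in place of CD48- for BM HSCs. Embryos were pooled for a library. No gene was deleted. Per the methods, the dams of the pre-HSC embryos had been injected with pregnant mare serum gonadotropin and human chorionic gonadotropin for superovulation, which is described for that population alone. All labels name the strain B6129SF1, while the methods describe B6C3F1 dams and different crosses for the populations, so that strain, transgene, hormone treatment, dissociation and stage cannot be told apart.

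Summed FPKM of 10 endothelial markers ranged from 2476 to 3525 in Endo, HE and pre-HSCs and from 268 to 423 in both HSC populations, and that of 9 blood stem and progenitor markers from 19.5 in Endo to 874 in BM HSCs. The pre-HSC gate had no lineage exclusion, and 14 macrophage markers summed to 755, 278 and 1548 FPKM in its 3 libraries, against 5.21 to 13.6 in Endo and HE. The sums were 528 and 133 for FL HSC libraries and 111 and 135 for those of BM HSCs. In BM HSCs nearly all of that was Lyz2, at 101 and 127 FPKM: the other 13 markers summed to 9.62 and 8.20 FPKM there, with Csf1r at 0.136 and 0.0674 and Emr1, which encodes F4/80, at 0.0424 and 0.105. Immediate early and heat shock genes, 12 in number, which respond within minutes to tissue dissociation, summed to 392 to 498 in Endo and HE, 965 to 1473 in pre-HSCs, and 87.8 and 81.1 with FL HSCs but 1982 and 356 with BM HSCs. In bulk samples such as these, a change in the share of cells that express a gene and a change in RNA per cell cannot be told apart. Depth is unknown, because the FPKM values hold no counts.

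The promoters of these genes are shown first, because several are textbook targets of NF-kB itself. NF-kB dimers bind a decameric kB site, searched for here as GGGNNNTTCC on both strands of the 250 bases upstream of each start in RefSeq's promoter table (build GRCm38.p6). The table held 7 of the 10 genes and gave no entry for Tlr4, Nfkb1 or Relb. The pattern was present upstream of Tlr2, Nfkb2, Rel, Nfkbia and Tnfaip3 and not in the windows of Myd88 and Rela, and 4.65% of all 32851 promoter windows in the table held it. It was chosen after several versions of the kB site had been tried, and a match is a description, not a bound site. The windows below, each of 60 bases, show a match of each inhibitor gene, of Tlr2 and of Rel, with the decamer in capitals; all 4 genes rose from HE to pre-HSC. Tnfaip3 had another match, before a second start in the table, and Nfkb1, a subunit that also rose, had no entry. Nfkb2, not shown, had 4 matches over 3 starts and was called in no transition. Myd88, without a match, rose from HE to pre-HSC, and Rela, also without, was called in no transition. The windows lie at chr12:55492648-55492707 for Nfkbia, chr10:19015411-19015470 for Tnfaip3, chr11:23771026-23771085 for Rel and chr3:83841747-83841806 for Tlr2. Each is written 5′ to 3′ on the minus strand, the gene's own.
Nfkbia: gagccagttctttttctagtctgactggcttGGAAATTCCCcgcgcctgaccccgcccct
Tnfaip3: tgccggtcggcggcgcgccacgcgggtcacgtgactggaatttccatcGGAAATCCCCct
Rel: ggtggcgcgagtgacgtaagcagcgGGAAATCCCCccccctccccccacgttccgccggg
Tlr2: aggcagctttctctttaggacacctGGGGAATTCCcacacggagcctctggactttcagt
The decamer began 29 bases before the start of Nfkbia, 12 before that of Tnfaip3, 91 before that of Rel and 173 before that of Tlr2. In Nfkbia, Tnfaip3 and Rel it read in the reverse sense, and Tnfaip3 and Rel carried the same 10 letters.

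Expression of each gene was then compared between neighbouring stages, to ask at which step of HSC ontogeny its level changed. A gene was called changed where limma gave an adjusted p under 0.01 for any difference among the 5 populations, an adjusted p under 0.05 for the pair, and a change of at least 2-fold on the log2(FPKM + 1) scale. The scale understates the change of genes with low FPKM, which here are Tlr2, Tlr4, Rel and Tnfaip3. All log2 fold changes below are on it, given with their standard errors, and adjusted p-values are from limma over 14708 tested genes, of which all 10 were part. Gene positions are those of GENCODE M1 on mm9.

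No member was called between Endo and HE, where 0.129% of all tested genes were; 1 of the 10, Nfkb1, had an unadjusted p under 0.05. From HE to pre-HSC, 6 of 10 rose and none fell, beside 11.3% of tested genes called and 6.98% called higher. From pre-HSC to FL HSC 2 of 10 fell, beside 25% called and 13.9% called lower. From FL HSC to BM HSC 2 of 10 rose, beside 10.1% called and 5.99% called higher. The median log2 fold change of the 10 was 1.20, -0.79 and 0.52 in these 3 transitions, and that of all tested genes 0.09, 0.11 and 0. Mean FPKM was highest in pre-HSCs for 7 members and in BM HSCs for 3. Between these stages only Tlr2 and Tnfaip3 were called, both lower in BM HSCs, beside 14.5% of tested genes called lower.

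**Figure D1:**
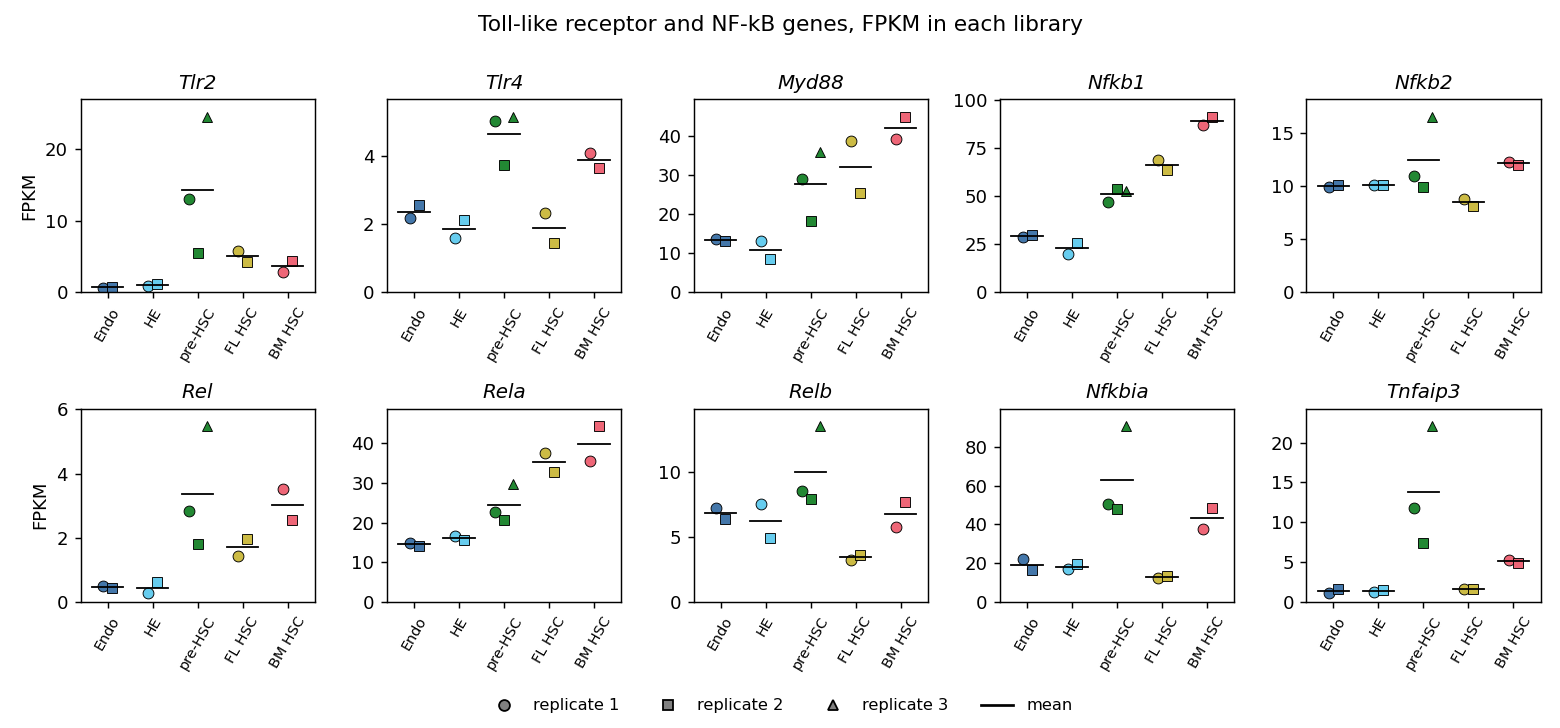
FPKM of each of the 10 genes (y axis, linear from 0) in every library, grouped by population on the x axis. Symbols give the replicate and the horizontal line the mean. Nfkb1 climbs from 19.9 to 25.9 in HE to 86.9 to 91.2 in BM HSCs, whereas Nfkbia and Tnfaip3 peak in pre-HSCs and are low in FL HSCs.

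**Figure D2:**
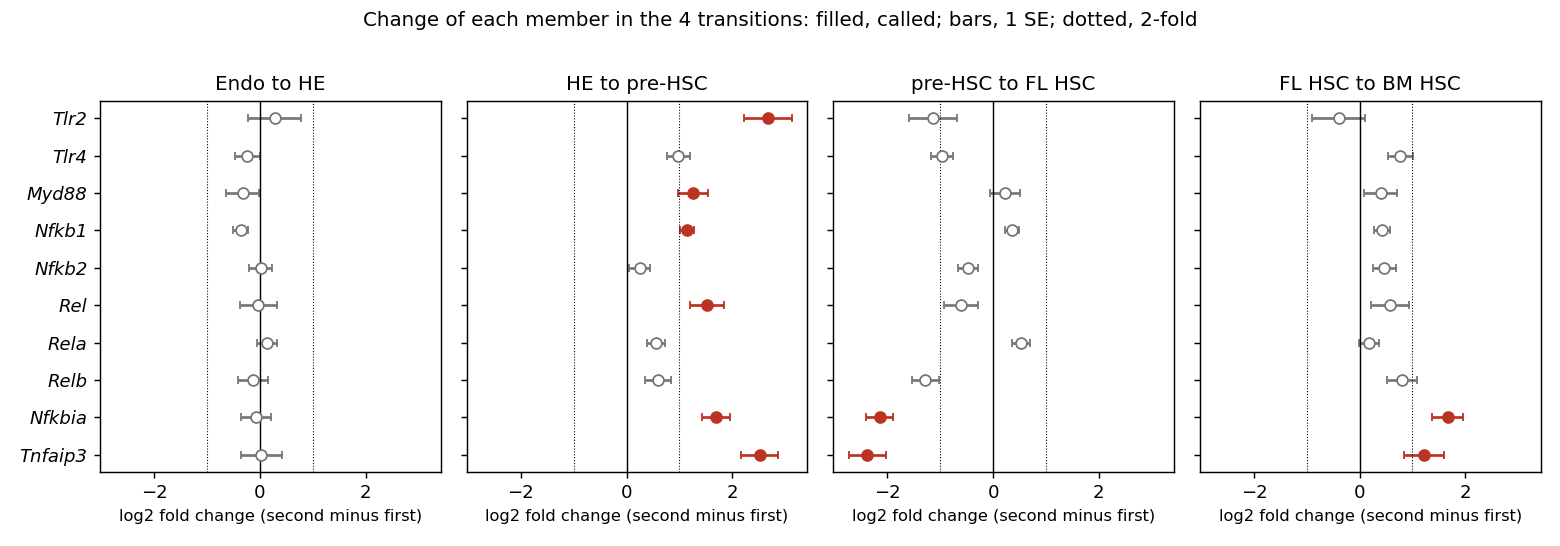
Log2 fold change on the log2(FPKM + 1) scale (x axis) of each gene (y axis) in the 4 transitions, second population minus first. Bars are 1 standard error, filled points are called, and dotted lines mark 2-fold; 0, 6, 2 and 2 points are filled.

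Tlr2 (chr3:83640195-83645689) encodes the receptor for bacterial lipoproteins. Endo libraries read 0.678 and 0.739 FPKM and HE libraries 0.919 and 1.24. The 3 pre-HSC libraries read 13.0, 5.52 and 24.4, those of FL HSCs 5.85 and 4.27, and those of BM HSCs 2.89 and 4.38. All 3 pre-HSC libraries were above both HE libraries, but they spread from 5.52 to 24.4, and the lowest of them was below 1 FL HSC library. The log2 fold change from HE to pre-HSC was 2.67 ± 0.46 (adjusted p = 0.00316). Onward to FL HSC it was -1.14 ± 0.46 (adjusted p = 0.0618), not called, and from pre-HSC to BM HSC it was -1.53 ± 0.46 (adjusted p = 0.0177), called beside 14.5% of tested genes called lower. In the order Endo, HE, BM HSC, FL HSC, pre-HSC, no neighbours differed at an adjusted p under 0.05.

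Tlr4 (chr4:66488618-66591318), the lipopolysaccharide receptor, was low in all libraries. Its FPKM was 2.17 and 2.56 for Endo and 1.59 and 2.12 for HE. Pre-HSC libraries had 5.04, 3.74 and 5.15, FL HSC libraries 2.34 and 1.45, and BM HSC libraries 4.10 and 3.65. The pre-HSC libraries lay above all Endo, HE and FL HSC libraries and overlapped those of BM HSCs. The change from HE to pre-HSC was 0.98 ± 0.21 (adjusted p = 0.00986) and that from pre-HSC to FL HSC -0.97 ± 0.21 (adjusted p = 0.00421), both just short of 2-fold on the log2(FPKM + 1) scale and so not called. With 0.5 in place of 1 added to FPKM they were 1.12 (adjusted p = 0.0106) and -1.11 (adjusted p = 0.00459), and both were called.

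MyD88 is the adaptor that nearly all Toll-like receptors and the IL-1 receptor share. Myd88 (chr9:119245052-119250529) was at 13.8 and 13.3 FPKM in Endo libraries and at 13.2 and 8.48 in those of HE. It reached 29.1, 18.4 and 36.1 FPKM in the pre-HSC libraries, 38.8 and 25.6 with FL HSCs, and 39.3 and 45.0 with BM HSCs. Every library from the pre-HSC stage on was above all 4 endothelial libraries, and both BM HSC libraries were above the rest. It rose by 1.26 ± 0.28 from HE to pre-HSC (adjusted p = 0.0111), and the change from pre-HSC to FL HSC was 0.22 ± 0.28 (adjusted p = 0.54) and from FL HSC to BM HSC 0.40 ± 0.31 (adjusted p = 0.395). The call of the rise to pre-HSC was lost in 4 of 24 other settings, among them the fit without HE replicate 2. From HE to BM HSC, Myd88 rose by 1.89 ± 0.31 (adjusted p = 0.000569), and 20.3% of tested genes were called higher in that comparison. The pre-HSC libraries do not enter that difference of means, but they do enter the spread in the fit over all libraries.

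Nfkb1 (chr3:135247619-135354511) encodes p105, the precursor of the p50 subunit, and was the most abundant of the 10 in all libraries but pre-HSC replicates 1 and 3, in which Nfkbia was higher. Its FPKM was 28.9 and 30.1 for Endo, then 19.9 and 25.9 for HE and 47.2, 53.8 and 52.9 for pre-HSCs. FL HSC libraries had 68.7 and 63.6 FPKM, and BM HSC libraries 86.9 and 91.2. From HE on, each stage lay above the one before with no overlap between libraries. The rise was 1.14 ± 0.13 from HE to pre-HSC (adjusted p = 0.000464, called). It was followed by 0.36 ± 0.13 to FL HSC (adjusted p = 0.0433) and 0.42 ± 0.14 to BM HSC (adjusted p = 0.0609), neither of them 2-fold. Over the whole path from HE to BM HSC it came to 1.92 ± 0.14 (adjusted p = 2.97e-06).

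Rela (chr19:5637483-5648130) encodes p65, the partner of p50 in the most common NF-kB dimer and the subunit that carries the activation domain. Endo libraries held 14.9 and 14.2 FPKM and HE libraries 16.5 and 15.7. Pre-HSC libraries held 22.8, 20.5 and 29.8, FL HSC libraries 37.5 and 32.8, and BM HSC libraries 35.5 and 44.3. The 3 later stages did not overlap with the endothelial ones, and the FL HSC and BM HSC libraries overlapped with each other. No single transition passed 2-fold: the steps were 0.55 ± 0.17 to pre-HSC (adjusted p = 0.0381), 0.53 ± 0.17 to FL HSC (adjusted p = 0.0274) and 0.17 ± 0.19 to BM HSC (adjusted p = 0.563). Added up, HE and BM HSC differed by 1.25 ± 0.19 (adjusted p = 0.000298), which was called.

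Rel (chr11:23641514-23670970) encodes c-Rel, a subunit best known from lymphocytes. Its FPKM was low in all libraries, at 0.483 and 0.443 for Endo and 0.280 and 0.607 for HE. Pre-HSC libraries had 2.83, 1.81 and 5.48, those of FL HSCs 1.44 and 1.96, and those of BM HSCs 3.51 and 2.54. No endothelial library reached 1 FPKM and every later one did. The rise from HE to pre-HSC was 1.52 ± 0.32 (adjusted p = 0.0085). That call was lost in 7 of 24 other settings, over which the change ran from 0.97 to 2.60. The levels in FL HSCs overlapped those in pre-HSCs, with a change of -0.62 ± 0.32 (adjusted p = 0.138).

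Nfkb2 (chr19:46379227-46386580) and Relb (chr7:20191566-20214787) encode p100 and RelB, the subunits of the alternative branch. Nfkb2 was the flattest member, between 8.15 and 16.5 FPKM in the 11 libraries, and a difference among the populations was not detected (adjusted p = 0.206 in limma's test over all 5). Relb had 7.28 and 6.38 FPKM for Endo, 7.53 and 4.96 for HE, and 8.53, 7.95 and 13.6 for pre-HSCs. It then had 3.22 and 3.63 FPKM for FL HSCs and 5.81 and 7.72 for BM HSCs. Both FL HSC libraries were below all others, and the pre-HSC libraries were above all others. The difference between those stages was -1.28 ± 0.25 (adjusted p = 0.00216), but the test over all populations gave an adjusted p of 0.0132, so that Relb was not called.

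Nfkbia (chr12:56590398-56593634) encodes IkB alpha, which holds NF-kB in the cytoplasm and is itself induced by it. The Endo libraries had 22.1 and 16.3 FPKM and the HE libraries 16.7 and 19.5. The 3 pre-HSC libraries had 50.4, 48.2 and 90.7, while FL HSC libraries had 12.5 and 13.2 and BM HSC libraries 37.8 and 48.6. FL HSCs were below every other library, and pre-HSC replicates 1 and 3 were above all libraries of other stages. Nfkbia rose by 1.69 ± 0.26 from HE to pre-HSC (adjusted p = 0.00205), fell by 2.15 ± 0.26 on the log2 scale to FL HSC (adjusted p = 0.000111) and rose again by 1.66 ± 0.29 to BM HSC (adjusted p = 0.00361). Pre-HSCs and BM HSCs differed by -0.49 ± 0.26 (adjusted p = 0.145).

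Tnfaip3 (chr10:18720716-18735463) encodes A20, a ubiquitin-editing enzyme that shuts off signaling from the receptors. It was at 1.05 and 1.60 FPKM for Endo, 1.24 and 1.48 for HE and 11.7, 7.44 and 22.0 for the pre-HSC libraries. FL HSC libraries were back at 1.60 and 1.58 FPKM, and BM HSC libraries read 5.29 and 4.82. The 3 levels were separate: endothelium and FL HSCs at the bottom, BM HSCs between, and pre-HSCs on top, with no library of one in the range of another. It rose by 2.52 ± 0.35 to pre-HSC (adjusted p = 0.00122), fell by 2.38 ± 0.35 to FL HSC (adjusted p = 0.000366) and rose by 1.22 ± 0.38 to BM HSC (adjusted p = 0.0451). The last call was lost in 15 of 24 other settings of the analysis, with adjusted p up to 0.167. A rise into pre-HSCs followed by a fall to FL HSCs was called for both inhibitors, and for 2.09% of all tested genes.

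The 3 pre-HSC libraries stood in the same order for 9 of the 10 genes: replicate 3 above replicate 1 above replicate 2. Nfkb1 was the exception. Of all tested genes 22% showed that order, of the macrophage markers 11 of 13, of the NF-kB target genes listed further down 14 of 19, of the immediate early genes 8 of 12, and of the endothelial markers 0 of 10. The median ratio of replicate 3 to replicate 2 was 1.79 for the 10 genes, 5.18 for the macrophage markers and 1.01 for all genes. From HE to pre-HSC, 11 of 13 tested macrophage markers rose. The part of macrophage RNA, or of dissociation, in the levels of the 10 genes was not tested.

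**Figure D3:**
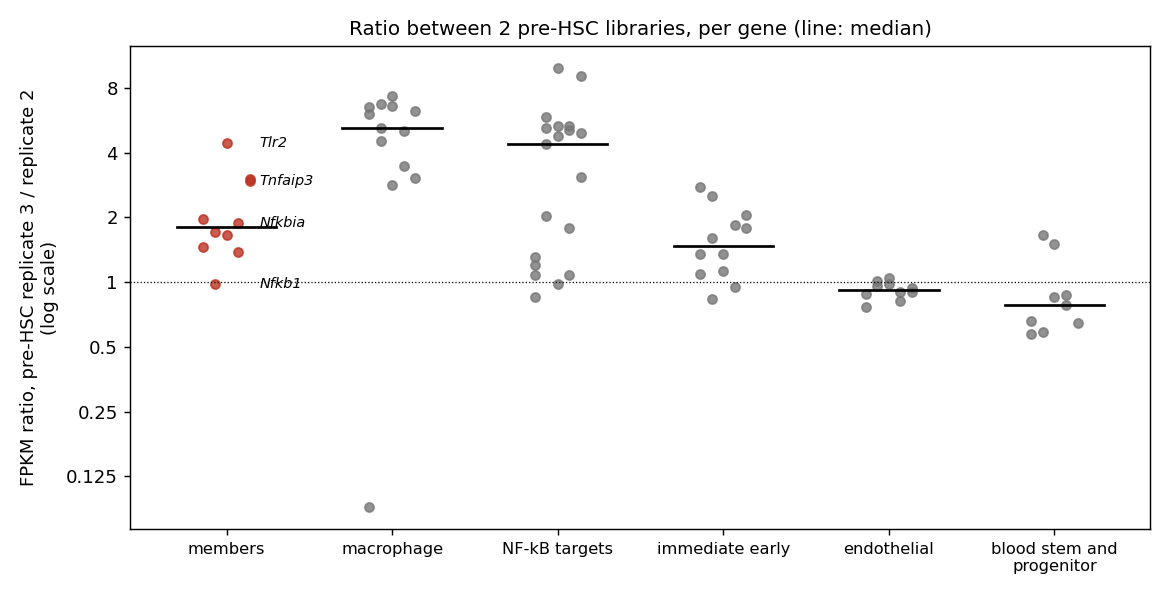
Ratio of FPKM in pre-HSC replicate 3 to that in replicate 2 (y axis, log scale) for each gene of 6 lists (x axis); lines are medians and the dotted line marks equal levels. The 10 genes have a median of 1.79, below the macrophage markers (5.18) and above the endothelial markers (0.917), with Tlr2 the highest of them and Nfkb1 at about 1.

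The values below are set beside these markers, and what macrophage RNA or dissociation adds to them was not tested. Leaving out pre-HSC replicates 1 and 3 was a choice made after seeing the data. The remaining pre-HSC library is assumed to vary like the other groups. Its macrophage marker sum was still 278 FPKM, against 5.21 to 13.6 in Endo and HE. The 6 rises from HE were then 1.65 for Tlr2, 1.21 for Nfkb1, 1.37 for Nfkbia and 1.84 for Tnfaip3. They were 0.74 for Myd88 and 0.97 for Rel, both short of 2-fold on the log2(FPKM + 1) scale and so not called. In FL HSC replicates 1 and 2 the macrophage marker sums were 528 and 133, and the sums of the 10 genes 181 and 156 FPKM. Nfkbia was at 12.5 and 13.2 FPKM there and Tnfaip3 at 1.60 and 1.58. Tlr2, Tlr4, Myd88, Nfkb1 and Rela were higher in replicate 1, and Rel and Relb were lower. The 14 macrophage markers summed to 111 and 135 FPKM in BM HSC replicates 1 and 2, nearly all of it Lyz2. Of the 14, 5 reached 1 FPKM in each of these libraries. Called higher in BM HSCs than in HE were 6 of the 10 genes, beside 20.3% of tested genes. They were Myd88, Nfkb1, Rel, Rela, Nfkbia and Tnfaip3. In BM HSC replicates 1 and 2 the immediate early genes summed to 1982 and 356, and Nfkbia stood at 37.8 and 48.6 FPKM. Tlr2, Myd88, Nfkb1, Rela and Relb were also lower in that replicate 1, while Tlr4, Rel and Tnfaip3 were higher in it.

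The rest of the pathway was described with 91 genes in 7 lists, of which 83 were tested; Tlr5, Tlr8, Tlr11, Sarm1, Sele, Il6, Ccl5 and Il18r1 were under the minimum of 1 FPKM in 2 libraries. None was called between Endo and HE. From HE to pre-HSC 31 rose and none fell, from pre-HSC to FL HSC 5 rose and 28 fell, and from FL HSC to BM HSC 9 rose and 1 fell. Of all tested genes 11.3%, 25% and 10.1% were called in these 3 transitions, so the counts to BM HSC were near that share. Called higher to pre-HSC were 6.98%, lower to FL HSC 13.9% and higher to BM HSC 5.99%. These shares also stand beside the counts of each list below. Without pre-HSC replicates 1 and 3 the number called from HE to pre-HSC was 19. The median log2 fold change of the 83 was 0.84, -0.46 and 0.25 in these transitions, and that of all tested genes 0.09, 0.11 and 0.

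**Figure D4:**
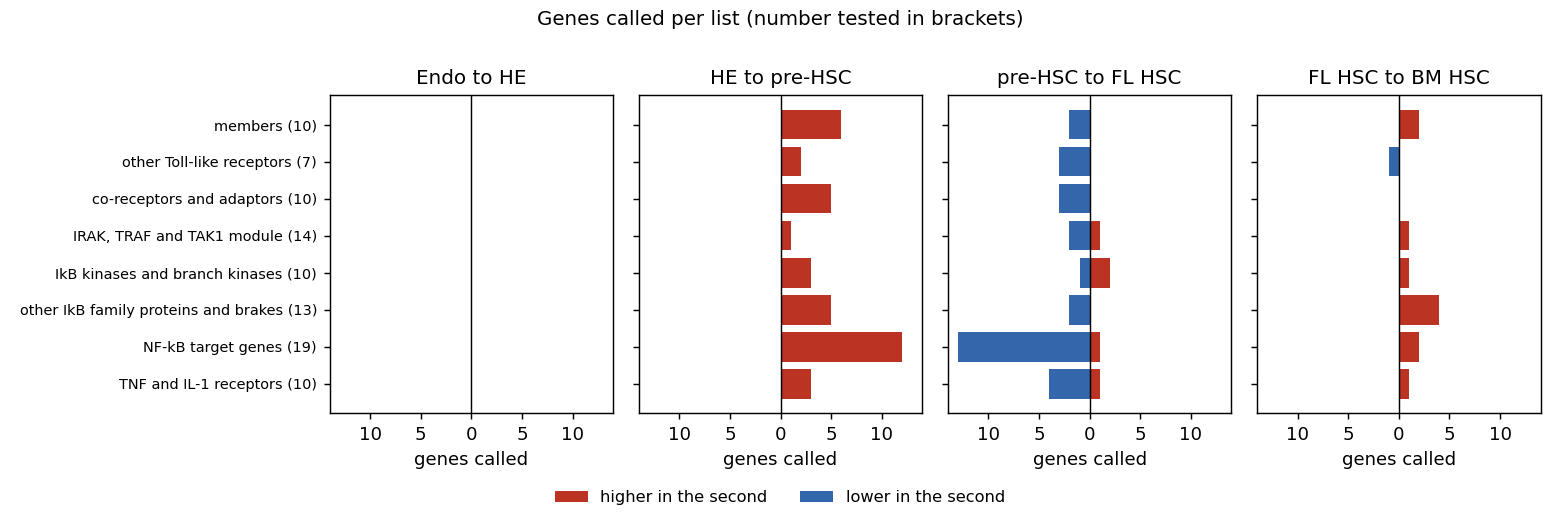
Number of genes called (x axis) in the 10 genes and in each of the 7 pathway lists (y axis, number tested in brackets) for the 4 transitions; bars to the right are higher and bars to the left lower in the second population. NF-kB target genes show 12 rises from HE to pre-HSC and 13 falls from pre-HSC to FL HSC.

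Of the other Toll-like receptors, 2 of 7 tested rose from HE to pre-HSC, 3 fell to FL HSC and 1 fell to BM HSC. Tlr7, an endosomal receptor for single-stranded RNA, was at 0.0344 FPKM or less in the 4 endothelial libraries and at 4.09, 1.12 and 6.54 in pre-HSCs, a rise of 2.08 (adjusted p = 0.00776). Tlr3, which binds double-stranded RNA, fell by 1.61 from pre-HSC to FL HSC (adjusted p = 0.000398), and Tlr12 fell by 2.03 from FL HSC, at 4.80 and 5.89 FPKM, to BM HSC, at 0.329 and 0.803 (adjusted p = 0.000658). Tlr7 followed the order of the macrophage markers among the pre-HSC libraries. The same order held for Cd14, the lipopolysaccharide co-receptor and a marker of monocytes and macrophages, at 25.0, 8.26 and 72.1 FPKM in pre-HSCs and at most 0.364 in endothelium. Cd14 led the co-receptors and adaptors, of which 5 of 10 rose to pre-HSC and 3 fell to FL HSC; it rose by 4.31 (adjusted p = 0.00211) and fell by 3.58 (adjusted p = 0.00167).

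The IRAK, TRAF and TAK1 module holds the kinases and ubiquitin ligases just below the adaptors. Of its 14 genes 1 rose to pre-HSC, 1 rose and 2 fell to FL HSC, and 1 rose to BM HSC. These counts were near the shares over all tested genes. The gene that rose was Irak3 (IRAK-M), a brake on Toll-like receptor signaling, in all 3 transitions. Its FPKM was 0.542 or less in endothelium, 2.08, 3.02 and 3.56 in the pre-HSC libraries, 6.51 and 10.5 with FL HSCs, and 25.2 and 24.9 with BM HSCs, with no overlap between stages from HE on. The steps were 1.63 (adjusted p = 0.00271), 1.28 (adjusted p = 0.00321) and 1.49 (adjusted p = 0.00671). Peli2, a ubiquitin ligase of the Pellino family, fell by 1.54 from pre-HSC to FL HSC (adjusted p = 3.9e-05). Among the IkB kinases and related kinases, 3 of 10 rose to pre-HSC, led by Birc3 (cIAP2) at 1.85 (adjusted p = 0.000661). To FL HSC 2 of these rose and Map3k8 fell, by 1.20 (adjusted p = 0.00441), and Birc2 (cIAP1) rose by 1.03 to BM HSC (adjusted p = 0.0165).

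Of the other IkB family proteins and brakes, 5 of 13 rose to pre-HSC, 2 fell to FL HSC and 4 rose to BM HSC. Nfkbiz, an inducible nuclear IkB protein, was at 2.01 and 1.87 FPKM for Endo, 1.74 and 2.21 for HE, and 22.1, 13.2 and 31.8 for pre-HSCs. FL HSC libraries had 0.968 and 1.71 FPKM, and BM HSC libraries 4.90 and 1.03. It thus shared with Nfkbia and Tnfaip3 the rise to pre-HSC, here 2.89 (adjusted p = 0.00205), and the fall to FL HSC, here by 3.26 (adjusted p = 0.000246). Tnip3, which encodes an A20-binding protein, did not exceed 1.13 FPKM in any earlier library and reached 5.02 and 5.97 in BM HSCs, a rise of 1.66 (adjusted p = 0.000455).

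NF-kB target genes, among them cytokines, chemokines and adhesion molecules, made the largest set: 12 of 19 rose to pre-HSC and 13 of 19 fell to FL HSC, with a median log2 fold change of 1.83 and -2.66. Cxcl2, a neutrophil chemokine, was at 0.107 FPKM or less in endothelium and at 33.0, 12.5 and 63.7 in pre-HSCs, and it was listed at 0 in all 4 later libraries. It rose by 4.93 (adjusted p = 0.000255). Ccl3, another chemokine of myeloid cells, was at 63.7, 18.1 and 96.3 FPKM in pre-HSCs and fell by 5.32 to FL HSC (adjusted p = 0.000146). Both followed the order of the macrophage markers in the pre-HSC libraries. From FL HSC to BM HSC 2 of the 19 targets rose, beside 5.99% of all tested genes called higher. They were Traf1 by 1.79 (adjusted p = 0.0019) and Junb by 1.73 (adjusted p = 0.0124). The other 17 were not called, and only 9 to 11 of the 22 listed targets reached 1 FPKM in libraries of these stages. Junb, which is also on the immediate early list, was called in 3 transitions: it rose by 1.83 to pre-HSC (adjusted p = 0.0061) and fell by 2.97 to FL HSC (adjusted p = 0.000105).

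Among the TNF and IL-1 receptors that feed the same kinases, 3 of 10 rose to pre-HSC, 1 rose and 4 fell to FL HSC, and 1 rose to BM HSC. Tnfrsf1b, the second TNF receptor, was at 1.07 FPKM or less in endothelium and between 8.28 and 22.0 in every later library, a rise of 2.75 (adjusted p = 0.000326). Cd40, a receptor of antigen-presenting cells that endothelium also carries, was between 26.5 and 47.8 FPKM up to the pre-HSC stage and at most 0.182 afterwards, a fall of 4.95 (adjusted p = 7.3e-08). Il1r1 rose by 1.25 from FL HSC to BM HSC (adjusted p = 0.00245).

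The genes most like each called member were sought by Pearson's r of log2(FPKM + 1) over the 11 libraries, among 9842 genes with a mean of at least 5 FPKM; libraries of a stage share their cells' origin, so the values are a description. For Tlr2 these were Tmem106a (r = 0.994), Evi2a (0.980) and Ctss (0.977), the last being the lysosomal protease cathepsin S, which reached 103 FPKM in pre-HSC replicate 3 and was at most 0.118 in endothelium. Myd88 was followed most closely by Tbc1d22a (0.980), Mvp (0.977) and Arrdc4 (0.960), and Rel by Idua (0.966), Atp6ap2 (0.962) and Irf7 (0.959). For Nfkb1 they were Rab21 (0.989), Tob2 (0.982) and Dtx3l (0.979), of which Tob2 stood at 12.1, 11.8 and 11.6 FPKM in pre-HSCs. Nfkbia was most like Pld2 (0.961), Ypel5 (0.940) and its fellow inhibitor Tnfaip3 (0.932), and Tnfaip3 was most like Ccrl2 (0.966), Lamp2 (0.953) and Zfp36 (0.946), a gene of the immediate early list. All 3 genes most like Tlr2 followed the order of the macrophage markers in the pre-HSC libraries. Of those most like Nfkb1, Dtx3l did and Rab21 and Tob2 did not. Tlr2 had this order itself and Nfkb1 did not. The genes were chosen for likeness over the same libraries, so their order is not separate evidence.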

How the data were processed

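Poly(A) RNA from sorted cells was sequenced in 11 libraries of 5 populations. The deposited values are FPKM per Ensembl gene; per the labels and methods, the authors aligned reads with TopHat to mm9 and kept unique matches, and their notes also name featureCounts, edgeR and Cufflinks, without versions. Of 37820 gene IDs, 97.9% got a symbol from GENCODE M1. Whole reads could not be recovered from FPKM. A 0 can be a failed estimate: Prpf8, used by every cell, is listed at 0 in pre-HSC replicate 3.

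Genes with at least 1 FPKM in 2 libraries (14708) were fitted with limma 3.58.1 in R 4.3.3 (trend) on log2(FPKM + 1) over all libraries with population as the only term, and p-values were adjusted by Benjamini-Hochberg. The fit was tested on simulated data. P-values set each difference of means against the spread between libraries, which, with embryos pooled, is not the spread between animals. Named genes were all 10 members, the called gene with the largest change of each list in each transition, any called in 3, and the 3 most alike per called member. Members and lists were chosen with earlier results of these data known. Libraries were not treated as paired in the fit. The study separated Endo and HE by GFP and lists the same number of embryos for both. Whether libraries of equal number shared embryos is not stated. Errors after ± are standard errors. The alternatives were other scalings, pseudocounts, filters, call rules, a fit on both populations alone, a replicate block and leaving out libraries. Figures were drawn with matplotlib 3.10.9.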

Additional observations from a re-analysis of the deposited data

How the results depend on the processing

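All 10 called changes kept their direction in all 24 other settings, and 5 of them also kept the call in each: Tlr2 to pre-HSC, and the rises to pre-HSC and falls to FL HSC of Nfkbia and Tnfaip3. When a replicate was left out, members called numbered 4 to 7 from HE to pre-HSC, 2 to 4 from pre-HSC to FL HSC and 1 to 2 from FL HSC to BM HSC. From pre-HSC to FL HSC 5 were called with FPKM scaled to equal totals or by median-of-ratios. From FL HSC to BM HSC 1 was called at an adjusted p under 0.01, without a filter on low values, with quantile or median-of-ratios scaling, or without pre-HSC replicates 1 and 3 and FL HSC replicate 1, and 0 when fitted on both populations alone, where Nfkbia had an adjusted p of 0.0669. Without pre-HSC replicates 1 and 3 and FL HSC replicate 1, 17, 19 and 6 of the 83 pathway genes were called in the 3 later transitions.

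Calls of the rise to pre-HSC were lost for Nfkb1 without HE replicate 1 (0.96), for Myd88 without HE replicate 2 (0.97) and for Rel without either Endo replicate, HE replicate 1 or BM HSC replicate 1 (1.36 to 1.52, test over all populations above 0.01). Without pre-HSC replicates 1 and 3 the rises of Myd88 (0.74) and Rel (0.97) were short of 2-fold. Tlr2 and Tlr4 were called lower in FL HSCs without pre-HSC replicate 2 (-1.65 and -1.09). The rise of Tnfaip3 to BM HSC was lost on leaving out any library but pre-HSC replicate 2 or 3 (adjusted p of 0.0605 to 0.167). Scaling to equal totals moved the median of all genes from 0.09 to 0.24 between HE and pre-HSC (called genes higher, 61.6% to 73.6%) and from 0.11 to -0.09 between pre-HSC and FL HSC (44.5% to 32.5%). The replicate block called 0, 6, 2 and 2 members in the 4 transitions, as without it. Correlations of deviations from the population mean, between libraries with the same number, ran from -0.155 to 0.156, and 8 of 20 exceeded 0.1. Between 2 groups of 2 both numbers give the same value by construction, so the 20 are not independent. For Endo and HE the value was 0.115, which does not settle whether they were paired.

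Changes of sign arose among changes that were not called. From Endo to HE they were -0.0731 and -0.0355 for Nfkb2 (quantile, median-of-ratios), 0.0372 for Nfkbia and 0.0109 for Rel (equal totals) and -0.215 for Tnfaip3 (quantile). Leaving out a replicate, the range was -0.28 to 0.14 for Nfkbia, -0.19 to 0.14 for Rel, -0.39 to 0.13 for Relb and -0.14 to 0.20 for Tnfaip3. Nfkb2 was at -0.0202 from HE to pre-HSC without pre-HSC replicates 1 and 3, also with FL HSC replicate 1 left out. To FL HSC, Myd88 was at -0.0168 with equal totals and at -0.0674 to 0.51 leaving out a replicate, and Rel at 0.0731 without the 3 libraries. The causes were not tested. Groups of 2 or 3 and the unknown depth limit the precision.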

Other observations

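The ratio of the inhibitor Nfkbia to the subunit genes it restrains does not depend on how a library is scaled. Nfkbia over Nfkb1 was 0.766 and 0.541 for Endo, 0.839 and 0.753 for HE, and 1.07, 0.896 and 1.72 for pre-HSCs. FL HSC libraries gave 0.182 and 0.207, and BM HSC libraries 0.436 and 0.533. The 5 populations did not overlap except Endo with HE, and FL HSCs were lowest. Nfkbia over Rela was 0.334 and 0.402 in FL HSCs and between 1.01 and 3.04 in every other library. These ratios were chosen after the values had been seen and were not tested.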
